A study of Mus musculus with 4 samples.

Results

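Hepcidin and iron handling genes were examined in the livers of mice at 10 months of age. The set was defined by name as 10 genes: the hepcidin genes Hamp and Hamp2, the regulatory genes Bmp6 and Id1, the uptake genes Tfrc, Tfr2, Trf and Slc39a14, the storage gene Fth1 and the export gene Slc40a1. A gene was measured where a probe set of the array carried its symbol and no other. This held for 9 of the 10 genes, among 18194 genes measured in all. Trf, the gene of transferrin, is named by 1 probe set that also names another gene and is not analysed here.

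The study crossed the carcinogen diethylnitrosamine (DEN), which initiates liver tumours in mice, with a diet containing 0.2% of the primary bile acid cholic acid (CA). The groups, 4 in all, were DEN with the CA diet, DEN with control diet, the CA diet without DEN, and control diet without DEN. Each was measured on 1 Affymetrix array, with liver RNA of a pool of 3 to 5 mice. The sources used here give neither the strain, sex and DEN dose nor how much tumour tissue went into a pool. There was no replicate and so no test: each comparison sets one pool against another, and their number limits how precise it is.

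Hepcidin is a peptide hormone made by hepatocytes that binds the iron exporter ferroportin, the product of Slc40a1, and causes its degradation, so that less iron leaves macrophages, hepatocytes and the gut. Its gene Hamp is induced when iron is high, through bone morphogenetic proteins that signal to SMAD factors, with Bmp6 from sinusoidal endothelial cells as a main ligand and Id1 as another target of the same signal. It is also induced in inflammation, through interleukin 6 and STAT3. Mice carry a paralogue, Hamp2, whose overproduction in transgenic mice did not lower body iron as that of Hamp did.

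Both hepcidin genes lie on chromosome 7 of the mouse genome (build GRCm38.p6, minus strand), with 19848 bases between their annotated starts. Promoter entries were at hand for 6 of the 10 genes (Hamp, Hamp2, Bmp6, Tfrc, Tfr2 and Fth1) and not for Id1, Trf, Slc39a14 and Slc40a1. The 250 bases before the start of each hepcidin gene are shown because both genes had a like pattern over the arrays. The sequences are from RefSeq and run 5′ to 3′ towards the start, at chr7:30944030-30944279 for Hamp and chr7:30924182-30924431 for Hamp2. Capitals mark matches to 3 motifs searched on both strands: GGCGCC, the letters of the BMP response element, TTCNNNGAA, those of a STAT site, and TGAGTCA, those of an AP-1 site.
Hamp: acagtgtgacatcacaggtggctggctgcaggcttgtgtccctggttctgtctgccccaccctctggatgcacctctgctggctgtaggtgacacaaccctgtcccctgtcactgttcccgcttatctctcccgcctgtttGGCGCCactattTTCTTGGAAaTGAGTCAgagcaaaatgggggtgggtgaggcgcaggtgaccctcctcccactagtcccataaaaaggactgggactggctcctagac
Hamp2: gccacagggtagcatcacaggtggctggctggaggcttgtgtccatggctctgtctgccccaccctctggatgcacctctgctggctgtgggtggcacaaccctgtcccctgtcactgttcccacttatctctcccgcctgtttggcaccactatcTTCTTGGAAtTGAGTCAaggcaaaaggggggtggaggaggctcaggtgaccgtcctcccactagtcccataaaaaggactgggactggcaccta
Over 247 aligned bases 227 were identical (91.9%), with 20 substitutions. The Hamp sequence held GGCGCC 109 bases before the start, a STAT match 97 bases before it and an AP-1 match 87 bases before it, counted to the first base of each match. The Hamp2 sequence held the STAT and AP-1 matches, at 94 and 84 bases, and no GGCGCC. The substitution G145A, counted from 1 at the 5′ end of the Hamp sequence and given as Hamp base, position and Hamp2 base, falls in that motif. Among 32851 mouse promoter entries of the same length, 9.59% held GGCGCC, 7.02% the STAT letters and 4.46% the AP-1 letters, and 4 entries held all 3, the Hamp entry being one of these. One of the entries of Tfrc held GGCGCC, and none of the 3 motifs was in the entries of Bmp6, Tfr2 and Fth1. A match describes letters and does not show that a factor binds there. The 3 motifs were picked by hand, so that finding them together in Hamp is not a test.

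All 9 measured genes had a used probe set, the one with the highest mean over the arrays, at or above 4.855 on the log2 scale. This is the median over all probe sets, and genes with a mean at or above it were called expressed (11651 genes). Of the 22 probe sets of these genes, 16 lay at or above it and 6 below. The array medians lay between 4.84 and 4.86, and 18 hybridization control probe sets differed by at most 0.18 to 0.37 in the 5 comparisons of 2 arrays. A level cannot be set against that of another probe set, so each gene is described across the 4 arrays only. In pooled whole liver, fewer cells of a type and less RNA per cell cannot be told apart.

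**Figure D1:**
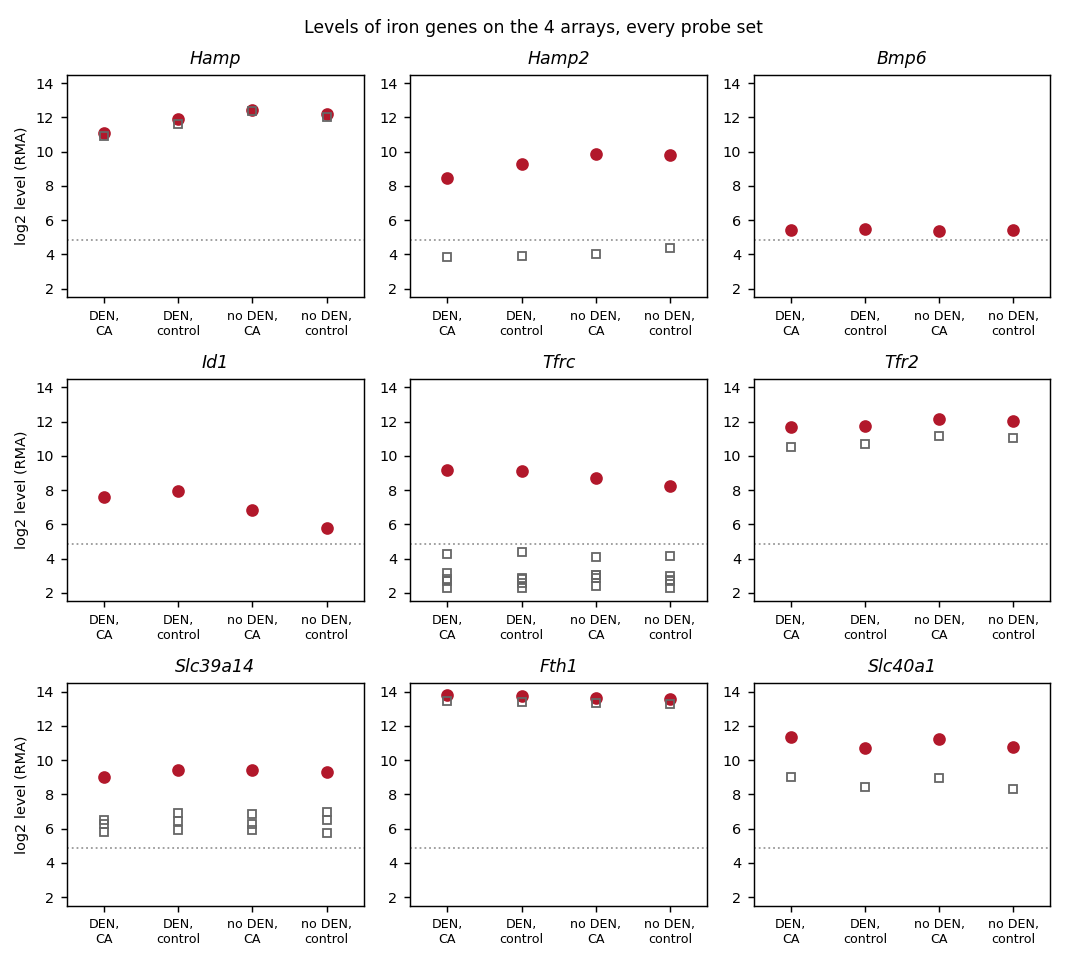
Log2 level (RMA) of each measured iron gene on the 4 arrays, from left to right DEN with CA diet, DEN with control diet, CA diet without DEN, and control diet without DEN. Filled circles are the probe set used, open squares the others, and the dotted line is the limit of 4.855. Hamp and Hamp2 were lowest on the array of DEN with CA diet, Id1 was lowest on control diet without DEN, and 5 probe sets of Tfrc lay under the limit.

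Differences of at least 2-fold, 1 on the log2 scale, were counted. On the CA diet against the control diet without DEN, 1 of 9 genes (Id1) was at least 2-fold higher and 0 were lower, where 0.661% and 0.592% of all expressed genes were higher and lower. In DEN against no DEN with the control diet, Id1 was again the 1 gene higher and 0 were lower, where 5.12% and 0.901% of expressed genes were. In CA against control diet after DEN, 0 genes were higher and 0 lower (0.266% and 0.472% of expressed genes). In DEN against no DEN on the CA diet, 0 were higher and 2, Hamp and Hamp2, were lower (4.75% and 1.75%). In DEN with CA against neither treatment, Id1 was higher and Hamp and Hamp2 were lower (5.97% and 2.2%). The difference of the diet effects, after DEN minus without DEN, was beyond 2-fold downwards for 2 genes, Hamp and Id1, and upwards for 0 (0.73% and 0.438%). These comparisons share arrays, so that they are not independent of each other. When each array was centred on its own median of the expressed genes, a scaling that shifted the median DEN difference on the control diet by -0.16, higher genes made up 70.3% of all 2-fold calls there against 85.02% as deposited. The same centring gave 63.1% against 73.1% in DEN with CA against neither, and 49.3% against 37.5% for the difference of the diet effects.

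**Figure D2:**
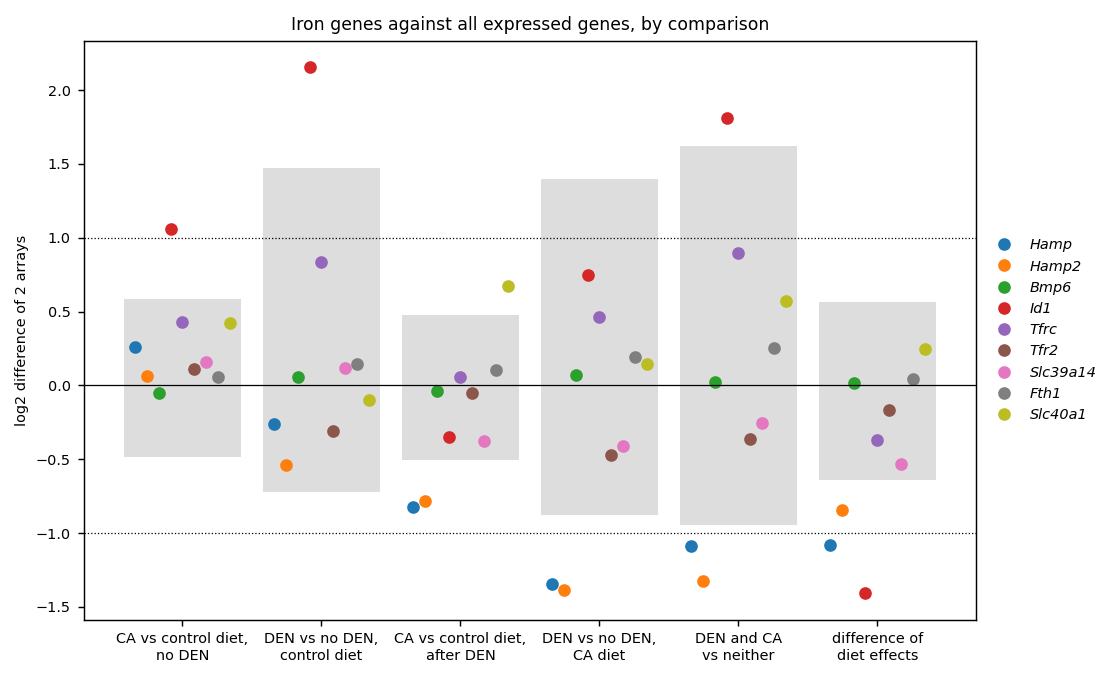
Log2 differences of the 9 measured iron genes (coloured points) in 5 comparisons of 2 arrays and in the difference of the diet effects. Grey boxes span the central 95% of 11651 expressed genes, and dotted lines mark 2-fold. Hamp and Hamp2 lie under the box in DEN against no DEN on the CA diet (-1.34 and -1.38), and Id1 lies above it in DEN against no DEN with the control diet (2.16).

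Hepcidin transcripts were lower in the pool that received both treatments than in any other. Hamp, which encodes the hormone, had log2 levels of 11.10 in DEN with CA diet, 11.93 in DEN with control diet, 12.45 on the CA diet without DEN and 12.19 on the control diet without DEN. The 3 other pools lay within 0.52 of each other, and the pool with both treatments lay 0.82 under the lowest of them. After DEN, Hamp was 1.77-fold lower on the CA diet than on the control diet, and 0.712% of expressed genes had a difference as low or lower. Without DEN it was 1.20-fold higher on the CA diet (0.26), within the 0.30 by which a hybridization control differed between those arrays. On the CA diet, Hamp was 2.54-fold lower in the DEN pool than in the pool without DEN (-1.34). On the control diet the DEN pool was 1.20-fold lower (-0.26). The difference of the diet effects was -1.08 and became -0.99968, just short of 2-fold, when arrays were centred on their medians of expressed genes.

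The other probe set of Hamp gave 10.89, 11.64, 12.38 and 12.03 on the arrays of DEN with CA, DEN with control diet, CA without DEN and control diet without DEN. It put the arrays in the same order and differed by -0.75 for CA against control diet after DEN and by 0.35 without DEN. Hamp2 had 8.47, 9.25, 9.85 and 9.79 on the same arrays. It was 1.72-fold lower on CA than on control diet after DEN (-0.78), 2.61-fold lower with DEN than without on the CA diet (-1.38) and 1.45-fold lower with DEN than without on the control diet (-0.54). Its diet difference without DEN was 0.061. The second Hamp2 probe set lay under 4.855 on all 4 arrays (3.82 to 4.39), so that its order is not read. With the mean over both probe sets Hamp2 differed by -0.80 for DEN against no DEN on the CA diet and by -0.95 in DEN with CA against neither, both short of 2-fold, and its diet difference without DEN was -0.15.

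The names of 2 of these probe sets, the second of Hamp and the used one of Hamp2, end in _x_at, by which Affymetrix marks probes that also match other sequences. Signal of one hepcidin gene in the probe set of the other cannot be told apart here. The used Hamp probe set does not carry that mark. Over 4 centred values Hamp2 lay nearest to Hamp of all 11199 named expressed genes compared, with a root mean square difference of 0.11. The next were Them4, a thioesterase gene (0.11), and Slc7a2, a carrier gene for cationic amino acids (0.11), and no gene lay within 0.1. Nearest to Hamp2 were Afmid, a kynurenine formamidase gene (0.038), Il6ra, the interleukin 6 receptor gene (0.070), and the cytochrome gene Cyp4f14 (0.074). These likenesses rest on 4 arrays and describe them only.

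**Figure D3:**
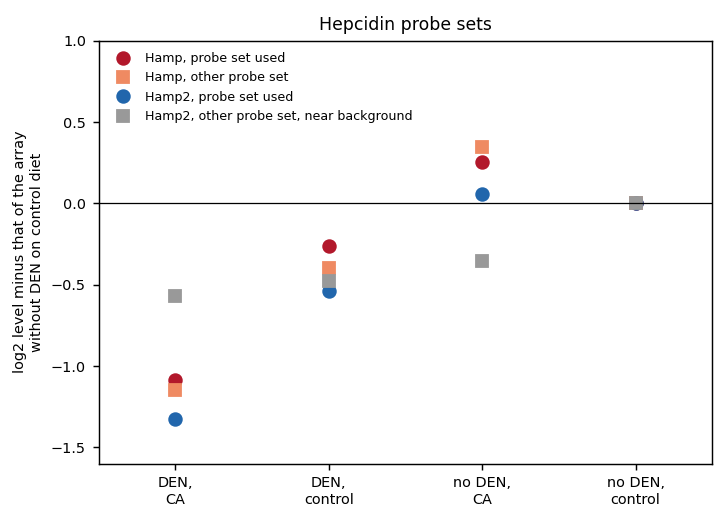
Log2 level of each hepcidin probe set minus its own level on the array of control diet without DEN, for the 4 arrays. Both Hamp probe sets and the used Hamp2 probe set lie 1.09 to 1.32 under that array in DEN with CA diet, and between 0.061 and 0.35 above it on the CA diet without DEN.

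Hepatocyte markers went both ways where Hamp was lower, and 1 of them, Tat, was lower by more than Hamp. The 9 measured of 10 markers had a mean log2 level of 13.47 in DEN with CA, 13.65 in DEN with control diet, 13.71 on CA without DEN and 13.63 on control diet without DEN, and none lay under 4.855. Their median difference for DEN against no DEN on the CA diet was 0.012 (Hamp -1.34). Tat, the glucocorticoid-responsive tyrosine aminotransferase gene, differed by -1.65 there, the cytochrome gene Cyp2e1 by -0.60, and Hnf4a, a hepatocyte transcription factor gene, and Cps1, of the urea cycle, by -0.48 each. The secreted protein genes Ahsg, Fgb and Apoa1 differed by 0.48, 0.30 and 0.18, Alb, the albumin gene, by 0.082 and Ttr, the transthyretin gene, by 0.012. For CA against control diet after DEN, Tat differed by -1.24 and the other 8 by -0.21 to 0.079. The part of hepatocyte content in the Hamp values was not tested.

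Bmp6, the ligand that reports liver iron to hepatocytes, was level across the arrays and close to the background of the array. It had 5.45 in DEN with CA, 5.49 in DEN with control diet, 5.38 on CA without DEN and 5.43 on control diet without DEN, a range of 0.11 over the 4 arrays, and the largest of its differences in the 5 comparisons was 0.071. All 4 values lie within 0.63 of the limit. As many as 3020 expressed genes lay within a root mean square difference of 0.1 of its pattern, so that the nearest ones (Cfap126, Ccn4 and Secisbp2) were not set apart from many others. Of 12 endothelial markers, all measured, 11 were expressed. The mean log2 level of all 12 was 7.53, 7.42, 7.03 and 7.03 on the arrays in the same order. The median difference of the 11 expressed was 0.32 for DEN against no DEN with the control diet.

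Id1, an inhibitor of basic helix-loop-helix factors and a target of BMP signals in hepatocytes and endothelium, had a pattern unlike that of Hamp. Its levels were 7.59 in DEN with CA, 7.93 in DEN with control diet, 6.84 on CA without DEN and 5.78 on control diet without DEN. Both DEN pools lay above both pools without DEN. It was 4.46-fold higher with DEN than without on the control diet (2.16), and 1.02% of expressed genes had a difference as high or higher. On the CA diet it was 1.68-fold higher with DEN than without (0.75). The CA diet went with a 2.09-fold higher level without DEN (1.06) and a 1.27-fold lower level after DEN (-0.35). Id1 was highest where Hamp was second lowest, and the array with the lowest Id1 carried the second highest Hamp. The nearest patterns to Id1 were those of Kif22, Cdk1 and Birc5, genes of mitosis, at 0.085, 0.096 and 0.12. Id1 has 1 probe set with 1 symbol, so no second probe set could be set beside it.

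Other genes that carry or answer BMP signals mostly stood close to 0. An exception short of 2-fold was Id3, like Id1 a helix-loop-helix inhibitor gene, which was added with its values seen. It differed by 0.94 for CA against control diet without DEN and by 0.088 after DEN. For DEN against no DEN it differed by 0.88 with the control diet and by 0.025 with CA. Its difference of the diet effects was -0.85, below 0 like that of Id1 (-1.41). The list held 28 genes, of which 26 were measured and 23 expressed. In DEN against no DEN with the control diet, 2 of 23 were at least 2-fold higher and 0 lower, where 5.12% and 0.901% of all expressed genes were (median 0.13, against 0.035 over all expressed genes). These were Id2, another helix-loop-helix inhibitor, at 1.37 and the ligand gene Bmp4 at 1.24. Bmp4 lay at 4.82 on control diet without DEN, under the limit, and at 6.06 in DEN with control diet. With DEN against no DEN on the CA diet 1 of 23 was higher (Id2, 1.24) and 0 were lower (4.75% and 1.75% of expressed genes). In DEN with CA against neither, Id2 and Bmp4 were higher and 0 were lower (median -0.0083), where 5.97% and 2.2% of expressed genes were. In the 2 diet comparisons 0 of 23 were 2-fold higher or lower, with medians of -0.13 after DEN and 0.10 without DEN. Of all expressed genes 0.266% were higher and 0.472% lower after DEN, and 0.661% and 0.592% without DEN.

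The inhibitory SMAD genes, which BMP signals induce together with Hamp, stayed within 2-fold. Smad7 had 6.62 in DEN with CA, 6.88 in DEN with control diet, 7.195 on CA without DEN and 6.74 on control diet without DEN. On this used probe set it was, like Hamp, lowest in DEN with CA and highest on CA without DEN. It differed by -0.26 for CA against control diet after DEN, by 0.46 without DEN and by -0.58 for DEN against no DEN on the CA diet, where its other probe set differed by -0.051. Its difference of the diet effects was -0.72. The other probe set of Smad7 did not share that order: DEN with CA stood 0.17 above control diet without DEN. Smad6 differed by -0.11 for CA against control diet after DEN, by -0.26 without DEN and by 0.27 for DEN against no DEN on the CA diet. The genes of the iron sensing complex are given although they go beyond the 2 core genes a list that the naming rule allows, and were added with their values seen. Hfe differed by -0.24 for CA against control diet after DEN and by -0.12 for DEN against no DEN on the CA diet, and Tmprss6, the protease gene that restrains hepcidin, by -0.18 and -0.31 in these. Hjv, the gene of the BMP co-receptor hemojuvelin, had 8.68 in DEN with CA, 8.80 in DEN with control diet, 7.69 on CA without DEN and 8.55 on control diet without DEN. It was low on the CA diet without DEN, the array on which Hamp was highest.

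Genes listed for the inflammatory control of hepcidin, among them the acute phase genes Saa1, Saa2, Saa3 and Crp, went in both directions. Of 24 genes, all measured, 23 were expressed, and the ligand gene Il6 itself was not (2.34 to 2.45). In DEN with CA against neither treatment, 6 of 23 were at least 2-fold higher and 5 lower (median 0.092), where 5.97% and 2.2% of all expressed genes were. In DEN against no DEN on the CA diet, 1 was higher and 5 were lower (median -0.011; 4.75% and 1.75% of expressed genes). On the control diet 3 were higher and 2 lower (median -0.32; 5.12% and 0.901%). These 2 were Saa1 and Saa2, which were also among the 5 lower in each of the comparisons before. For the CA diet 1 was higher and 0 lower after DEN (median 0.046; 0.266% and 0.472%), and 2 were higher and 1 lower without DEN (median 0.15; 0.661% and 0.592%). All expressed genes had medians between -0.022 and 0.035 in these comparisons.

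Il6ra, the receptor through which interleukin 6 reaches hepatocytes, was lowest where Hamp was lowest. It had 6.83 in DEN with CA, 7.52 in DEN with control diet, 8.12 on CA without DEN and 8.22 on control diet without DEN. It was 2.44-fold lower with DEN than without on the CA diet (-1.29), and its other probe set differed by -0.80. Stat3, the transducer of that signal, differed by -0.011 there. Socs3, its feedback inhibitor, was 2.75-fold higher on the CA diet without DEN (1.46) and differed by 0.72 after DEN. The acute phase genes Saa1 and Saa2, also driven by interleukin 6, were lower with DEN than without on the control diet (-2.71 and -3.04) and on the CA diet (-1.35 and -1.28). Saa1 and Saa2 are near-identical, and signal of one in the probe set of the other cannot be told apart here. After DEN, Saa1 was higher on the CA diet (0.93), where Hamp was lower (-0.82).

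Inhbb, which encodes the subunit of activin B, a ligand able to induce hepcidin in mouse liver cells, had the largest differences of the list. Its levels were 10.05 in DEN with CA, 8.92 in DEN with control diet, 5.36 on CA without DEN and 5.02 on control diet without DEN. It was highest where Hamp was lowest. The difference for DEN against no DEN with the control diet was 3.90 on this probe set and 0.20 on its other one. Osmr, the receptor gene of oncostatin M, was higher with DEN than without on the control diet by 2.06, while the lowest of its 3 probe sets differed by -0.45.

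**Figure D4:**
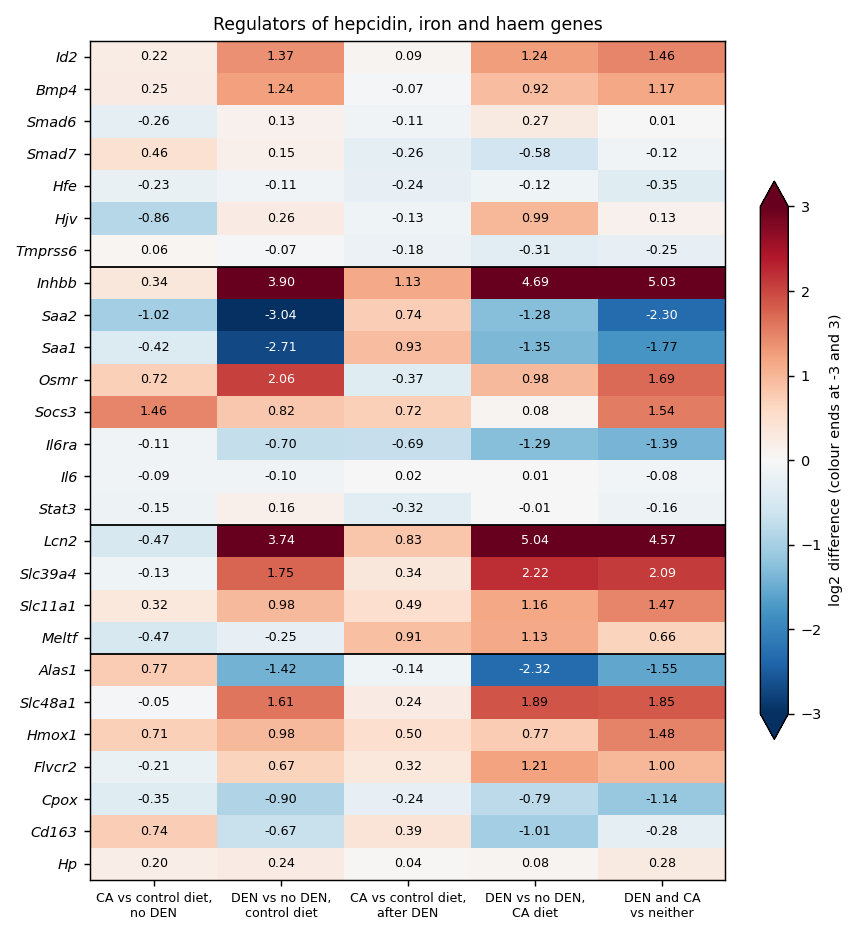
Log2 differences of named genes in 5 comparisons of 2 arrays (columns), with the number in each cell and colour ending at -3 and 3. Lines part, from the top, genes of BMP, SMAD and iron sensing, of inflammation, of iron transport and storage, and of haem. Inhbb and Lcn2 are higher in the 3 comparisons of DEN with no DEN or neither, and Saa1, Saa2 and Alas1 are lower there.

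Among the uptake genes, Tfrc, the transferrin receptor of most cells, was higher in the DEN pools. Its levels were 9.15 in DEN with CA, 9.09 in DEN with control diet, 8.69 on CA without DEN and 8.26 on control diet without DEN. It was 1.78-fold higher with DEN than without on the control diet (0.84) and 1.38-fold higher on the CA diet (0.46). The CA diet differed by 0.059 after DEN and by 0.43 without DEN. The 5 other probe sets of Tfrc, among them control probe sets of the array, lay between 2.28 and 4.38, under the limit. With the mean over all 6 probe sets the DEN difference on the control diet was 0.16. As many as 134 expressed genes lay within 0.1 of the pattern of Tfrc, with Dmpk, Gss and Adcy7 nearest. Erythroid cells are rich in Tfrc. Of the 7 erythroid markers measured of 12, 2 were expressed, Alas2 and Klf1, and these went the other way from Tfrc. Their mean log2 level was 6.54 in DEN with CA, 6.88 in DEN with control diet, 7.57 on CA without DEN and 7.64 on control diet without DEN, and their median for DEN against no DEN was -1.04 on the CA diet and -0.76 on the control diet. All 7 together averaged 4.37, 4.41, 4.64 and 4.76. The part of erythroid cells in the Tfrc values was not tested.

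Tfr2, the hepatocyte transferrin receptor that takes part in iron sensing, ran the other way. It had 11.66 in DEN with CA, 11.71 in DEN with control diet, 12.13 on CA without DEN and 12.02 on control diet without DEN. Both DEN pools lay under both pools without DEN, by 1.39-fold on the CA diet (-0.47) and 1.24-fold on the control diet (-0.31). The used probe set carries the _x_at mark and the other does not. That other probe set gave 10.52, 10.69, 11.14 and 11.03. The diet differences of Tfr2 were -0.052 after DEN and 0.11 without DEN. On the CA diet 8.51% of expressed genes had a DEN difference as low or lower.

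Slc39a14 encodes ZIP14, a carrier that takes up iron not bound to transferrin, and manganese and zinc. It had 9.03 in DEN with CA, 9.40 in DEN with control diet, 9.44 on CA without DEN and 9.28 on control diet without DEN. The pool with both treatments was lowest, 1.30-fold under DEN with control diet (-0.37), and the other 3 lay within 0.16 of each other. Its 3 other probe sets lay between 5.76 and 6.96, and they differed by -0.14 to -0.38 for CA against control diet after DEN. The pool with both treatments was lowest on the highest of these (6.52), but not on the others. There it had 6.28 against 6.27 on CA without DEN, and 5.79 against 5.76 on control diet without DEN.

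Fth1, the heavy chain of the iron store ferritin, was at a high signal on every array and differed little. It had 13.81 in DEN with CA, 13.71 in DEN with control diet, 13.62 on CA without DEN and 13.56 on control diet without DEN. The largest difference was 0.25, in DEN with CA against neither, and its other probe set differed by 0.18. The name of the used probe set ends in _s_at, by which Affymetrix marks probes shared by several transcripts. Ferritin is controlled by iron mainly at translation, which an array of RNA does not see.

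Slc40a1, the gene of ferroportin, was higher on the CA diet both after and without DEN. It had 11.36 in DEN with CA, 10.68 in DEN with control diet, 11.21 on CA without DEN and 10.78 on control diet without DEN. Both CA pools lay above both control diet pools. It was 1.59-fold higher on CA than on control diet after DEN (0.67) and 1.34-fold higher without DEN (0.43). In the comparison after DEN 1.03% of expressed genes had a difference as high or higher. The other probe set gave 8.996, 8.44, 8.96 and 8.30, with diet differences of 0.56 after DEN and 0.67 without DEN. The DEN differences were 0.15 on the CA diet and -0.10 on the control diet for the used probe set, and 0.032 and 0.14 for the other, so that the probe sets differ in sign on the control diet.

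Ferroportin is abundant in Kupffer cells, the macrophages of the liver, which return iron from red cells to the blood. Nearest to the pattern of Slc40a1 were those of Tifa, Clec4f and Timd4, at 0.049, 0.051 and 0.055, and the last pair are Kupffer cell markers of the list used here. All 12 markers of Kupffer cells and macrophages were measured and expressed. Their mean log2 level was 8.47 in DEN with CA, 7.93 in DEN with control diet, 8.13 on CA without DEN and 7.49 on control diet without DEN. Their median differences for CA against control diet were 0.43 after DEN and 0.67 without DEN. Those for DEN against no DEN were 0.38 on the CA diet and 0.57 on the control diet, where the probe sets of Slc40a1 differed by -0.10 and 0.14 and their mean by 0.022. Clec4f differed by 0.54 after DEN and 0.42 without DEN for the diet, and by 0.12 for DEN on the CA diet and -0.0035 on the control diet. Timd4 differed by 0.72 and 0.53 for the diet, and by 0.19 and 0.0020 for DEN. The part of macrophages in the Slc40a1 values was not tested.

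**Figure D5:**
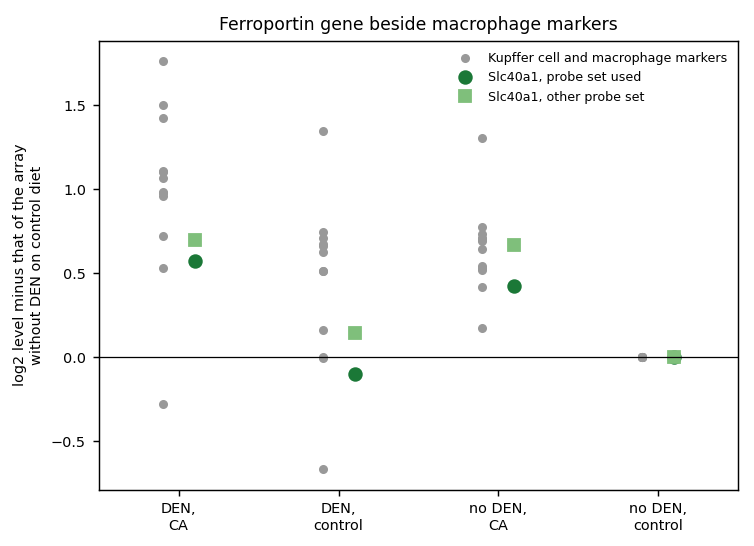
Log2 level minus that on control diet without DEN, for both probe sets of Slc40a1 (green) and 12 markers of Kupffer cells and macrophages (grey), on the 4 arrays. The used Slc40a1 probe set stands at 0.57 in DEN with CA and 0.43 on CA without DEN, and at -0.10 in DEN with control diet, where its other probe set stands at 0.14 and 10 of the 12 markers lie above 0.

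Other genes of iron transport, storage and sensing included a few with large differences in the DEN pools. Of 30 genes 29 were measured and 22 expressed, and Ftl1, the ferritin light chain gene, is not analysed here. In DEN against no DEN 4 of 22 were at least 2-fold higher on the CA diet and 2 on the control diet, and 0 were lower in either (medians 0.13 and 0.11). Of all expressed genes 4.75% and 5.12% were higher in these, and 1.75% and 0.901% lower. In DEN with CA against neither 3 were higher and 0 lower (median 0.21; 5.97% and 2.2% of expressed genes). In the diet comparisons 0 were higher or lower (0.266% and 0.472% of expressed genes after DEN, 0.661% and 0.592% without DEN). Lcn2, lipocalin 2, which binds bacterial iron carriers, had 12.89 in DEN with CA, 12.06 in DEN with control diet, 7.85 on CA without DEN and 8.32 on control diet without DEN. Slc39a4, a zinc importer gene of the family of Slc39a14, was higher with DEN than without on the CA diet (2.22) and on the control diet (1.75). Slc11a1, the metal carrier gene of macrophage phagosomes, differed by 1.16 and 0.98. Meltf, the gene of melanotransferrin, is the other gene of these 4. It had 5.55 in DEN with CA, 4.63 in DEN with control diet, 4.41 on CA without DEN and 4.89 on control diet without DEN. It counted as expressed through the first of these arrays, and its difference of 1.13 on the CA diet was taken against a level under the limit, so that without it 3 genes were higher there.

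Haem genes, which handle most of the iron that hepatocytes use for cytochromes, had a mixed picture. Of 24 genes 23 were measured, and all 23 were expressed. In DEN against no DEN 2 were at least 2-fold higher and 2 lower on the CA diet, and 1 was higher and 1 lower on the control diet (medians -0.12 and -0.065). Of all expressed genes 4.75% were higher and 1.75% lower on the CA diet, and 5.12% and 0.901% on the control diet. In DEN with CA against neither 2 were higher and 2 lower (median -0.055; 5.97% and 2.2% of expressed genes). In the diet comparisons 0 were higher or lower (0.266% and 0.472% of expressed genes after DEN, 0.661% and 0.592% without DEN). Alas1, the first and rate-limiting enzyme of haem synthesis in liver, had 9.69 in DEN with CA, 9.83 in DEN with control diet, 12.01 on CA without DEN and 11.24 on control diet without DEN. It was 4.99-fold lower with DEN than without on the CA diet (-2.32) and 2.67-fold lower on the control diet (-1.42), and its other probe set gave -1.90 and -1.28. Cpox, a later enzyme of the pathway, differed by -0.79 and -0.90, but the highest of its 3 probe sets differed by 0.037 and -0.29.

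Hmox1, which breaks haem down and releases its iron, had 6.91 in DEN with CA, 6.40 in DEN with control diet, 6.13 on CA without DEN and 5.42 on control diet without DEN. Its difference was 1.48 in DEN with CA against neither. Slc48a1, a haem transporter gene of lysosomes, was higher with DEN than without on the CA diet (1.89) and on the control diet (1.61). Flvcr2, a transporter gene of the family of the haem exporter Flvcr1, differed by 1.21 and 0.67. Cd163, the macrophage receptor gene for haptoglobin with haemoglobin, differed by -1.01 and -0.67, against the direction of the macrophage list it also belongs to. Hp, the haptoglobin gene, differed by 0.0845 and 0.24. Of 20 genes for iron-sulphur clusters in mitochondria 16 were measured, all expressed, and 0 were 2-fold higher or lower in any comparison. Of all expressed genes 0.266% to 5.97% were higher and 0.472% to 2.2% lower, by comparison. In DEN with CA against neither 2 of these 16 lay above 0 (median -0.27, against 0.012 over all expressed genes).

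Markers of 3 further cell types were read on the same arrays. The mean log2 level of the 8 measured of 10 cholangiocyte markers was 5.602 in DEN with CA, 5.45 in DEN with control diet, 4.33 on CA without DEN and 4.16 on control diet without DEN, and 3 of them (Epcam, Sox9 and Tspan8) were expressed. Tspan8, a tetraspanin gene, set most of that gap, with log2 levels of 11.75 and 11.38 in the DEN pools on CA and control diet, against 3.92 and 3.69 in the pools without DEN on CA and control diet, while Krt7, a keratin of bile duct cells, was under the expression limit. The 10 stellate cell markers averaged 7.13, 7.18, 7.09 and 6.97 in the same order of pools, with 9 expressed. The 9 measured of 10 neutrophil markers averaged 5.199, 5.08, 4.89 and 4.69, with S100a8, S100a9 and Csf3r expressed and Ly6g not measured. S100a8 and S100a9 set that gap, with differences of 2.86 and 2.40 in DEN with CA against neither. Csf3r differed by 0.058 there. For DEN against no DEN the median over all 9 was -0.019 with the control diet and -0.12 with CA. S100a8 lay under the limit in both pools without DEN (4.82 with CA, 3.71 with control diet). The part of these cells in the levels of the iron genes was not tested.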

How the data were processed

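Hepatic RNA of 4 groups, each 1 pool of livers of 3 to 5 mice, was measured on 4 arrays. The authors deposited log2 expression values that they computed by RMA with the program Partek 6.5, as the submitters' processing notes state, with no options named there. RMA draws the distributions of arrays together, so that a change of most genes in 1 direction would be removed. RNA was labelled with a biotin dendrimer kit, per the labels' protocols.

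Of 45101 probe sets 34958 had 1 symbol in the platform annotation. Symbols matched RefSeq (GRCm38.p6) by gene identifier for 34754, with 0 changed. A gene took its probe set with the highest mean. Differences of log2 values were computed with no test. The text names all members, up to 6 genes a list beyond 2-fold in any comparison with up to 2 core genes, and the 3 nearest patterns. Nearness was the root mean square difference of 4 centred values, predicted genes left out. The members, the 5 gene lists and the 7 marker lists were chosen with earlier results of these data known. Only the choice of probe set, the differences and the counts were run on simulated arrays with known changes, and the other steps were not. Alternatives were quantile normalization, median centring, loess centring with a fraction of 0.3, the mean over a gene's probe sets, low values raised to 4.855, a 1.5-fold threshold and other filters. Tools were Python 3.11.15, pandas 2.3.3, statsmodels 0.14.6 and Biopython 1.88.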

Additional observations from a re-analysis of the deposited data

Results flagged for a closer look

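The following values are given because the effect in 1 background had the opposite sign to that in the other. Each rests on 1 array a group and was not tested, and 41.5% of expressed genes had diet effects of opposite sign, so that the sign alone sets no gene apart. For CA against control diet, Hamp differed by -0.82 after DEN and 0.26 without DEN (difference of the effects -1.08). Id1 differed by -0.35 and 1.06 (-1.41). Hamp2 differed by -0.78 and 0.061 (-0.85), but with the mean over its probe sets by -0.44 and -0.15 (-0.29), with no opposite sign. Slc39a14 differed by -0.37 and 0.16 (-0.53), but with the mean over its probe sets by -0.26 and 0.0011. Some of its other probe sets had no opposite sign (-0.38 and -0.084, and -0.14 and -0.21), while another had -0.14 and 0.14. Tfr2 differed by -0.052 and 0.11 (-0.16). For DEN against no DEN, where 23.3% of expressed genes had opposite signs, Slc39a14 differed by -0.41 on the CA diet and 0.12 on the control diet (-0.53). With median centring these were -0.49 and -0.043, both below 0. Slc40a1 differed by 0.15 and -0.10 (0.25), but its other probe set by 0.032 and 0.14 (-0.11) and the mean of both by 0.089 and 0.022, with no opposite sign.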

How the results depend on the processing

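Of 36 recomputed counts of iron genes past the threshold, 32 stayed within 1.5 times the reported count. At 1.5-fold the counts were 2 genes (Id1 and Tfrc) for DEN against no DEN with the control diet and 3 genes (Hamp, Hamp2 and Slc40a1) for CA against control diet after DEN. Of all expressed genes 15.5% and 3.11% passed 1.5-fold in these comparisons. With the mean over probe sets 1 gene, Hamp, passed for DEN against no DEN on the CA diet, since the second Hamp2 probe set near background drew Hamp2 to -0.80. The same setting took Hamp2 to -0.95 in DEN with CA against neither, which left 2 genes there (Hamp and Id1). When arrays were centred on their medians of expressed genes 1 gene, Id1, passed in the difference of the diet effects, and Hamp stood at -0.99968. No difference of an iron gene that passed 2-fold changed sign under any of these alternatives. Over the normalizations, the mean over probe sets and raised low values, Hamp for DEN against no DEN on the CA diet ran between -1.42 and -1.26, and Id1 for DEN against no DEN with the control diet between 1.99 and 2.16. Tfrc for that comparison ran between 0.16 and 0.84. No paired analysis was possible because each group has 1 array. One pool a group gives no spread between mice, and levels near 4.855, as those of Bmp6, are limited by background.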
